A study of Mus musculus with 4 samples.

Results

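Potassium channel genes were taken as all genes of the deposited table whose symbol starts with Kcn, which gave 77 of 21456 genes. Of these, 12 were inward rectifiers (Kcnj), 10 were tandem-pore channels (Kcnk), 31 were voltage-gated pore subunits, 8 were calcium- or sodium-activated pore subunits and 14 were accessory subunits. The other 2 were the antisense transcript Kcnq1ot1 and the regulator Kcnrg, which are no channel subunits. The measurements came from single-nucleus RNA sequencing of kidney cortex of C57BL/6J mice, with 1 library for each of 4 genotypes. One genotype was wild type (WT), a pair carried 1 mutation each (Sco2KO/KI or db/db), and the double mutant was Sco2KO/KI;db/db. Sco2KO/KI mice carry a knockout and a knock-in allele of Sco2, which encodes a mitochondrial protein needed to assemble cytochrome c oxidase. db/db mice lack signalling by the leptin receptor and become obese and diabetic, and the double mutant carries both changes. The labels state no age or sex, nor the kind of knock-in, nor whether a library held 1 animal or several.

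Potassium channels set the membrane voltage of kidney tubule cells and let potassium that the sodium pump brings in leave again. On the basolateral side they recycle potassium for the pump, and on the apical side of the distal nephron they secrete it into the urine. Inward rectifiers and tandem-pore channels are open near the resting voltage, whereas voltage-gated and calcium-activated channels open on depolarisation or a rise in calcium. Accessory subunits change the gating or traffic of the pore.

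Levels are normalised values, the mean UMIs of a gene in the nuclei of a cluster after each nucleus was scaled to 10000. A row of 4 values lists WT first, then Sco2KO/KI, then db/db, with the double mutant last. Genes differ in length and in how well they are captured, so each gene is compared across cell types and libraries and not with other genes. The libraries held 5157, 1182, 4578 and 5279 nuclei, and the proximal tubule-like class, clusters 0, 1, 2, 3 and 7, held 2447, 706, 2003 and 3015 of them. The median UMI total per nucleus lay between 662 and 9757 over all clusters and libraries. A gene's main site was the class or cluster with its highest mean over libraries with at least 20 nuclei there, among 16 sites. Clusters were named from marker genes and may differ from the study's own names. With 1 library per genotype there are no replicates, no difference between genotypes could be tested, and every ratio describes these libraries only.

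At their main site 32 of the 77 genes reached a floor of 0.5, which is 41.6%, against 37.5% of all 21456 genes. Of these, 24 reached 1.0 and 8 lay between. The other 45 had a median of 0.0765 at their main site, and 29 of them stayed below 0.1, but 0 genes were listed at 0 in every column. The last gene inside the floor was Kcnn3 with 0.509 and the first outside was Kcnf1, a silent voltage-gated subunit, with 0.497 in the podocyte-like cluster. Below the floor lay also the subunits of the ATP-sensitive channel, Kcnj8 with 0.0481 in cluster 6 and Kcnj11 with 0.0308 in the parietal epithelium-like cluster.

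The 32 genes were spread over 12 main sites. Connecting tubule-like cluster 8 was the main site of 6 genes, cluster 6 and the parietal epithelium-like cluster 17 of 4 each, and the proximal tubule-like class and principal cell-like cluster 13 of 3 each. The proximal tubule-like class thus led for 9.38% of these genes, against 10.2% of the 8037 genes above the floor. For 13 of the 32, more than 50% of the sum over sites lay at the main site, and the median of that share was 38.9%. It ran from 11.4% for Kcnj16, found along most of the tubule, to 88.6% for Kcng2, found almost only in podocyte-like nuclei. Genes with more than 50% of their sum at 1 site were thus a minority. The same shares over all genes above the floor are not given here.

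**Figure D1:**
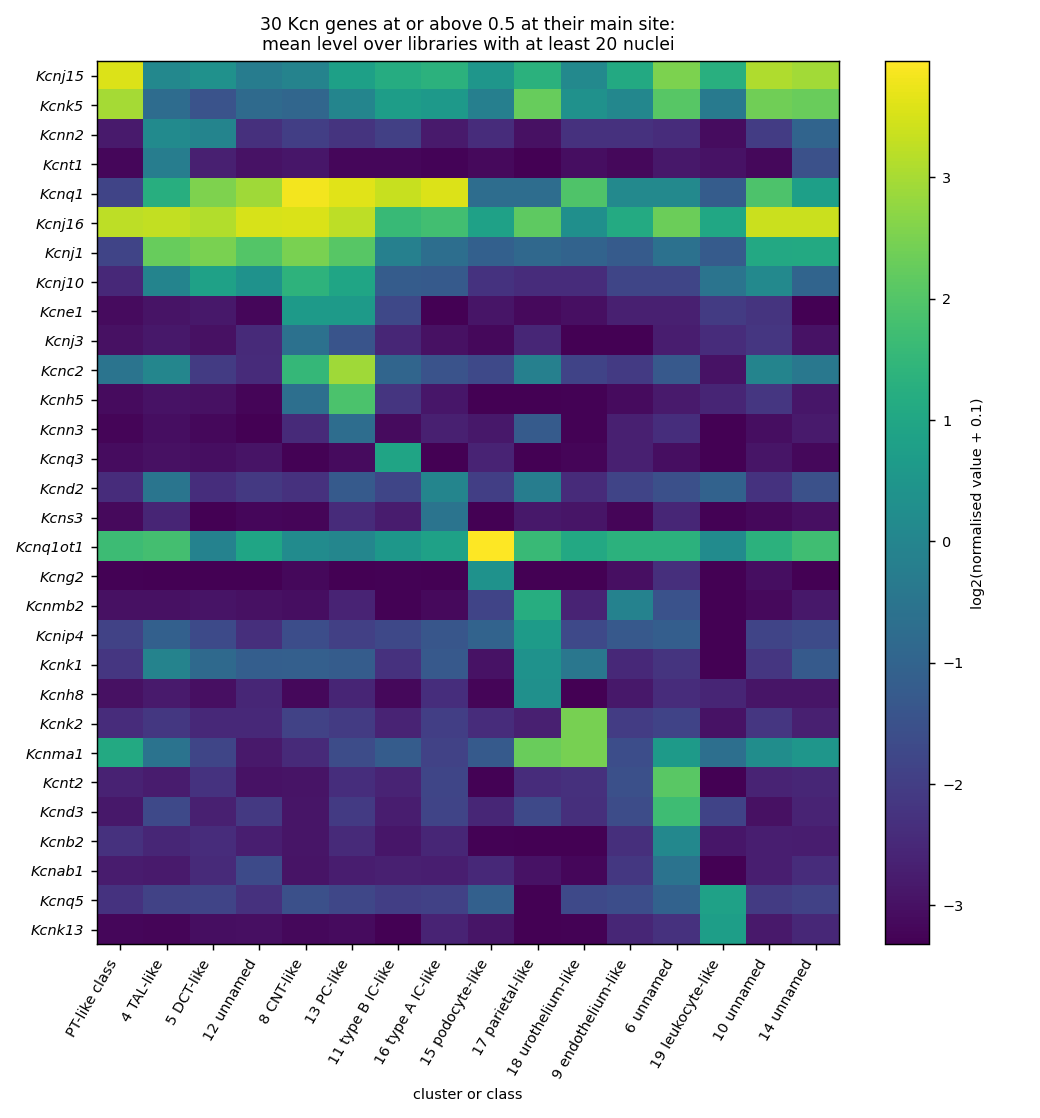
Mean level of 30 potassium channel genes above the floor (rows, ordered by main site) in 16 classes or clusters (columns), as log2 of the normalised value plus 0.1, over libraries with at least 20 nuclei. Kcnj15 and Kcnk5 are bright in the proximal tubule-like class, Kcnq1, Kcnj16, Kcnj1 and Kcnj10 in the distal tubule, and Kcnq1ot1 in the podocyte-like cluster.

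The split between proximal and distal nephron is shown by 2 pairs of genes, whose promoters are given here because the pairs differ in site. Kcnj15 (chromosome 16, 95257558 to 95300260, plus strand, mm10) encodes the inward rectifier Kir4.2, and Kcnk5 (chromosome 14, 20140057 to 20181809, minus strand) encodes the tandem-pore channel TASK-2. Both sit in proximal tubule cells. Kcnj1 (chromosome 9, 32372493 to 32399197, plus strand) encodes ROMK, the apical secretory channel, and Kcnj10 (chromosome 1, 172341210 to 172374085, plus strand) encodes the basolateral channel Kir4.1 of the distal tubule. The windows run from 250 bases before to 50 after a RefSeq gene start on GRCm38.p6, at chr16:95257308-95257607 (plus strand), chr14:20181733-20182032 (minus strand), chr9:32393735-32394034 (plus strand) and chr1:172340960-172341259 (plus strand), each 5′ to 3′ on the gene's strand. The Kcnj1 window starts downstream of the first start that GENCODE gives for the gene. Capitals mark a TATA box (TATAAA or, on the other strand, TTTATA) or a steroid receptor half-site (TGTTCT or AGAACA).
Kcnj15: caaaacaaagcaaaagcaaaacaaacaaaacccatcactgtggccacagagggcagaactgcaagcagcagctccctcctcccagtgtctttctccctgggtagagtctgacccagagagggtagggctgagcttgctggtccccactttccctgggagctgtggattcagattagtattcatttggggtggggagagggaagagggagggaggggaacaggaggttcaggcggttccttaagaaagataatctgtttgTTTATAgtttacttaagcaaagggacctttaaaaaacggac
Kcnk5: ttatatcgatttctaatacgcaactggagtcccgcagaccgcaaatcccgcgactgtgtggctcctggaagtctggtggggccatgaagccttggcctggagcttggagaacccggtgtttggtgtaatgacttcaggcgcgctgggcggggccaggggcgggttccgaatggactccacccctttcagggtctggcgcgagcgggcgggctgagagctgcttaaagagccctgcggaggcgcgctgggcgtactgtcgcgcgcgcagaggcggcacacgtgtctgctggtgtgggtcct
Kcnj1: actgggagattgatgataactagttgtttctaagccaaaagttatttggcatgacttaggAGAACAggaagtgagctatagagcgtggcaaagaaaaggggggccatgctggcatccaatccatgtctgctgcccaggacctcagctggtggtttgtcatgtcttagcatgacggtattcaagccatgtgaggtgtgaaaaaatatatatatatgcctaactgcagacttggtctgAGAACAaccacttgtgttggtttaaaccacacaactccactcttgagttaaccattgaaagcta
Kcnj10: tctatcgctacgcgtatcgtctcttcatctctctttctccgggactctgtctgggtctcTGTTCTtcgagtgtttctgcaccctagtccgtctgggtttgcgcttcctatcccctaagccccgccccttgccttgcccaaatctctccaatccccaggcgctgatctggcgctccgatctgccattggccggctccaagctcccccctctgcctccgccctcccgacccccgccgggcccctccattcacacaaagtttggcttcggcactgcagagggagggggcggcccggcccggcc

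The Kcnj15 window held 1 TATA match, the Kcnj1 window 2 steroid receptor half-site matches and the Kcnj10 window 1, while the Kcnk5 window held none of the motifs searched. No window of the 4 held the HNF1 half-site GTTAAT or its complement ATTAAC. HNF1 is a transcription factor of kidney epithelium. Over 32817 mouse promoter windows of the same length, 7.10% held the HNF1 half-site, 13.6% the TATA box and 18.97% the steroid receptor half-site. RefSeq windows matched 23 of the 32 genes above the floor, and 3, 3 and 6 of the 23 held these motifs in at least 1 window. A gene such as Kcnj16 has several windows, whereas the shares above are per window, so the counts and shares are not in the same unit. GC content was 49.7% for Kcnj15, 43.7% for Kcnj1, and 63.7% for each of Kcnk5 and Kcnj10. The matches are letters only and show no binding.

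Kcnj15 had its highest level in the proximal tubule-like class, at 9.55, 11.6, 10.8 and 15.2. Among the 5 clusters of the class its mean was lowest in cluster 7, at 7.85, and highest in cluster 0, at 13.6. WT held the lowest value and the double mutant the highest in all 5 clusters. The log2 ratios, here means over the 5 clusters of log2 of the value plus 0.1, were 0.26 for Sco2KO/KI against WT and 0.19 for db/db against WT. Against db/db the double mutant had 0.49, and against Sco2KO/KI 0.42. The ratio was positive in 5 of 5 clusters in each comparison and past 2-fold in none over the class.

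Kcnk5 went the other way, with 11.5, 7.71, 6.23 and 5.82, so that WT stood above the 3 mutant libraries. Its log2 ratio to WT was -0.58 in Sco2KO/KI and -0.87 in db/db, negative in all 5 clusters in both. The smallest difference between Sco2KO/KI and WT was in cluster 2, at 9.05 against 10.2, and the largest in cluster 3, at 6.23 against 13.2. The double mutant and db/db were close, with a log2 ratio of -0.09 and clusters on both sides of 0. Kcnk5 thus had its highest level in WT in each of the 5 clusters, whereas Kcnj15 had its lowest there. The comparisons share libraries, so the ratios to WT are not independent of each other. Marker levels of the class also differed between libraries. The summed level of 6 straight proximal tubule markers over the class was 36.6, 34.3, 15.4 and 9.89. That of 10 proximal tubule markers was 144, 149, 110 and 144. The part of these levels in the differences within the class was not tested.

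**Figure D2:**
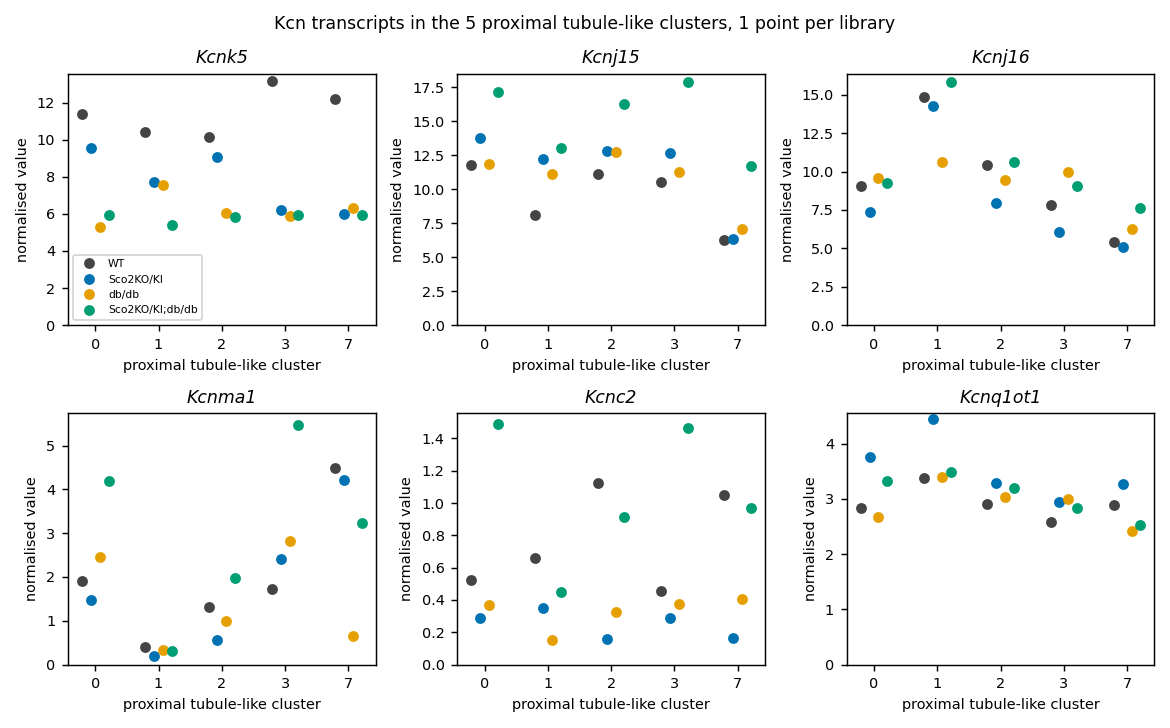
Normalised values of 6 potassium channel transcripts (panels) in the 5 proximal tubule-like clusters (horizontal axis), with 1 point for each of the 4 libraries. WT is highest for Kcnk5 and lowest for Kcnj15 in every cluster, and Kcnma1 lies between 0.201 and 0.393 in cluster 1.

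Kcnj16 (chromosome 11, 110968033 to 111027968, plus strand) encodes Kir5.1, which makes a channel only together with Kir4.1 or Kir4.2. Its level over the proximal tubule-like class was 9.51, 8.14, 9.17 and 10.5. It was highest in cluster 1, with a mean of 13.9, and lowest in cluster 7, with 6.10, and these were the extremes in every library. Cluster 7 carries markers of the straight segment, and its double mutant values rest on 30 nuclei, against 441 in WT, 116 in Sco2KO/KI and 242 in db/db.

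Kcnma1, the pore of the large-conductance calcium-activated BK channel, varied strongly among the proximal tubule-like clusters. Its mean was 0.306 in cluster 1, 1.21 in cluster 2, 2.51 in cluster 0, 3.11 in cluster 3 and 3.15 in cluster 7. In cluster 7 the values were 4.50, 4.21, 0.642 and 3.24, so that db/db stood apart there. In clusters 0, 2 and 3 the double mutant was highest, at 4.19, 1.98 and 5.47. Over the class the 4 values were 1.97, 1.77, 1.44 and 3.04. As means over clusters, the log2 ratios of the double mutant were 0.95 to db/db and 0.87 to Sco2KO/KI, each positive in 4 of 5 clusters. These lie just inside 2-fold, and without cluster 7 the ratio to Sco2KO/KI was past it, at 1.17, and the ratio to db/db was 0.64. The ratio of db/db to WT turned from -0.45 to 0.10 without cluster 7.

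Kcnc2, a fast voltage-gated subunit of the Kv3 group, was lower in the proximal tubule-like class than at its main site but differed most between libraries, with 0.761, 0.250, 0.326 and 1.06. WT and the double mutant were high, and Sco2KO/KI and db/db were low. Among the 7 potassium channel genes at or above 0.5 there, Kcnc2 was the 1 gene past 2-fold lower in Sco2KO/KI than in WT, with a log2 ratio of -1.26, where 1.32% of all genes were lower and 0.889% higher. In db/db against WT 0 of the 7 were past 2-fold, with Kcnc2 at -0.98 just inside, where 1.8% of all genes were higher and 3.46% lower. Kcnc2 was past 2-fold higher in the double mutant, with 1.38 against db/db and 1.66 against Sco2KO/KI, and again it was the 1 gene of the 7. The shares of all genes past 2-fold higher were 2.74% and 2.4%, and lower 1.18% and 2.3%. Its ratio had the same sign in 5 of 5 clusters in all 4 comparisons. At this level the call depends on the pseudocount, and with 0.5 in place of 0.1 Kcnc2 was past 2-fold in 1 comparison, the double mutant against Sco2KO/KI.

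Of the others, Kcnq1ot1 was at 2.91, 3.54, 2.90 and 3.07 there. Its ratio to WT in Sco2KO/KI was 0.26 on the log2 scale, positive in 5 of 5 clusters, and -0.01 in db/db. For Kcnj16 the corresponding ratios were -0.24 and 0.00, and that of Sco2KO/KI to WT for Kcnma1 was -0.36. In the double mutant against db/db the ratios were 0.17 for Kcnj16 and 0.08 for Kcnq1ot1, and against Sco2KO/KI they were 0.41 and -0.19. The differences of Kcnj16 and Kcnq1ot1 over the class were thus below 2-fold in all 4 comparisons.

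Transcripts of proximal tubule genes were also present in other clusters. In thick ascending limb-like cluster 4 the level of Kcnj15 was 8.08% and of Kcnk5 6.29% of that in the proximal tubule-like class, where Slc34a1, a phosphate transporter of the proximal tubule, had 12.9% and Lrp2, megalin, 9.83%. In cluster 10, which carries markers of several classes, the shares were 70.9% and 65.7%, against 79.0% and 69.1%. Kcnj15 and Kcnk5 were thus at or below the share of at least 1 of these markers at both sites. In the parietal epithelium-like cluster 17, Kcnk5 had 60.5%, with 6.57 in WT and 2.88 in db/db, while Slc34a1 had 24.3%, Lrp2 28.0% and Kcnj15 20.3%. The share of Kcnk5 was therefore above those of the other 3 proximal transcripts in the parietal epithelium-like nuclei. The shares in cluster 17 set a mean of WT and db/db against a class mean over all 4 libraries. Over the 16 sites the mean levels of Kcnj15 had a Spearman correlation of 0.95 with Slc34a1 and 0.88 with Kcnk5. All sites share the same 4 libraries and carry some proximal transcripts, so these are descriptions.

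**Figure D3:**
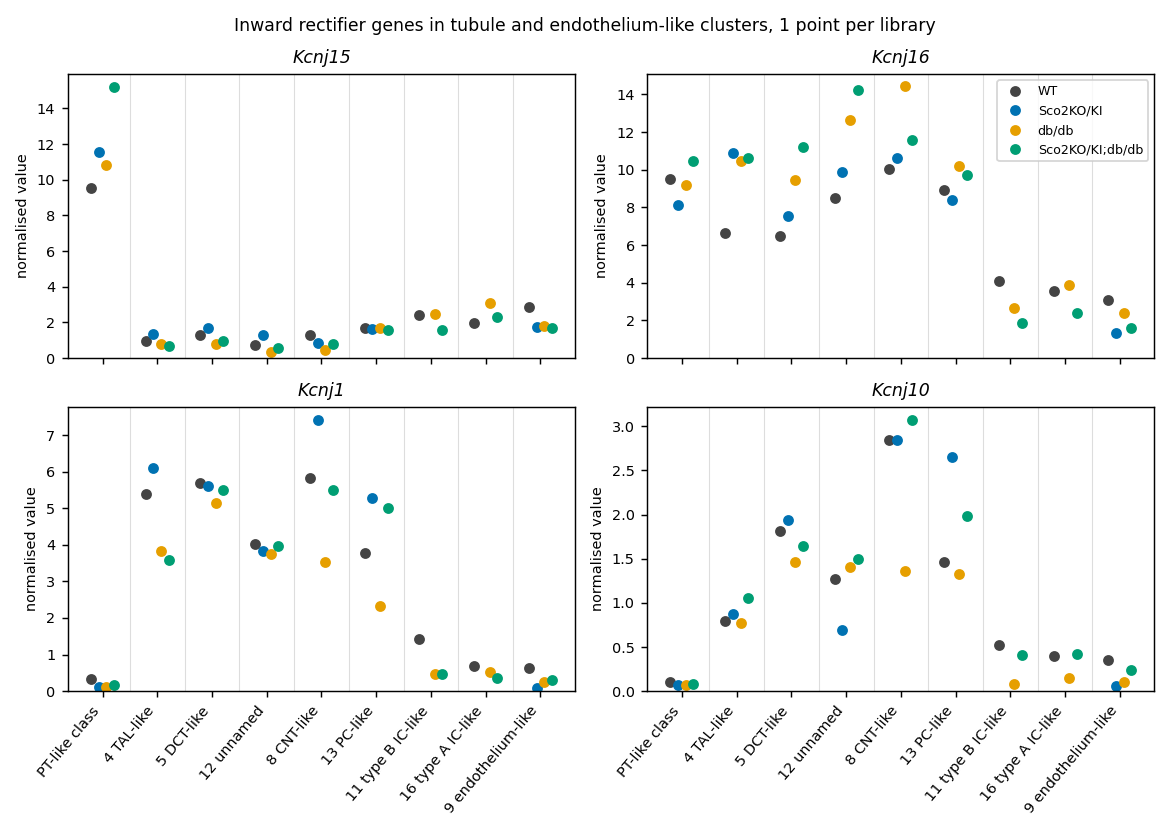
Normalised values of 4 inward rectifier genes (panels) in tubule and endothelium-like sites (horizontal axis), with 1 point for each library with at least 20 nuclei of the site. Kcnj15 is highest in the proximal tubule-like class, Kcnj16 runs from there to cluster 13, and Kcnj1 and Kcnj10 are low in the proximal tubule-like class and high from cluster 4 to cluster 13.

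From the thick ascending limb on, the inward rectifiers changed place. Kcnj10 did not exceed 0.106 in the proximal tubule-like class, and its mean was 0.872 in cluster 4, 1.71 in distal convoluted tubule-like cluster 5, 2.53 in connecting tubule-like cluster 8 and 1.86 in principal cell-like cluster 13. Kcnj16 was high at all of these sites, with 9.66, 8.66, 11.7 and 9.32, close to the 9.32 of the proximal tubule-like class. Kir5.1 transcripts were therefore found both where Kir4.2 transcripts and where Kir4.1 transcripts were highest. Over the 16 sites the Spearman correlation was 0.62 between Kcnj10 and Kcnj16, 0.85 between Kcnj10 and Kcnj1, and -0.42 between Kcnj10 and Kcnj15.

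Kcnj1 had means of 4.72 in cluster 4, 5.49 in cluster 5, 5.57 in cluster 8 and 4.10 in cluster 13, and these neighbours overlapped between libraries. In cluster 5 the values were nearly level, at 5.69, 5.62, 5.16 and 5.48. In cluster 8 they were 5.84, 7.40, 3.53 and 5.50, and in cluster 13 3.76, 5.29, 2.34 and 5.00. The db/db library was lowest in both of these clusters, by -0.71 and -0.67 against WT on the log2 scale. In cluster 4 the values were 5.38, 6.11, 3.82 and 3.58, so that both libraries with the db/db genotype were below both without it.

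Kcnj10 in cluster 8 was at 2.84, 2.85, 1.36 and 3.07, with db/db apart from 3 nearly equal libraries. The log2 ratio was -1.01 for db/db against WT and 1.11 for the double mutant against db/db. In cluster 13 the values were 1.46, 2.65, 1.33 and 1.98 and in cluster 5 1.81, 1.94, 1.46 and 1.64, with db/db lowest in each but within 2-fold of WT. Kcnj16 did not share this order in cluster 8, where db/db was highest, at 10.0, 10.6, 14.4 and 11.6.

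Kcnq1 and Kcne1 encode the pore and the accessory subunit of a slow voltage-gated channel, also found in epithelia. Kcnq1 (chromosome 7, 143106362 to 143427042, plus strand) was highest in cluster 8, at 11.3, 15.6, 16.04 and 13.8. It was also high in cluster 13, in the type A intercalated cell-like cluster 16 and in the type B intercalated cell-like cluster 11, with means of 12.2, 11.8 and 9.99. It was 0.182 in the proximal tubule-like class. Clusters 11 and 16 held 15 Sco2KO/KI nuclei each, below the limit of 20, so that their means rest on the other 3 libraries. Kcnq1 was thus highest in the distal nephron and in intercalated cell-like nuclei.

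Kcne1 (chromosome 16, 92345982 to 92359468, minus strand) was confined to fewer sites, with means of 1.48 in cluster 8, 1.45 in cluster 13 and at most 0.200 elsewhere. In cluster 8 the values were 1.84, 1.69, 0.538 and 1.84, and in cluster 13 1.92, 1.39, 0.388 and 2.11. The db/db library was low in both clusters, and the other 3 lay well above it. The log2 ratios were -1.61 and -2.05 for db/db against WT, and 1.60 and 2.18 for the double mutant against db/db. In cluster 8 the values rest on an estimated 50, 13, 16 and 89 UMIs. Kcnq1 had no such drop, with 14.8 in db/db and 9.80 in WT in cluster 13. In unnamed cluster 12, 0 of 7 channel genes at or above 0.5 were past 2-fold in db/db against WT, where 2.83% of all genes were higher and 7.87% lower. In the double mutant against db/db it was 0 of 6 there, where 4.59% were higher and 4.21% lower.

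The same clusters also differed in their marker levels. The summed level of the 6 connecting tubule markers in cluster 8 was 264, 304, 291 and 529, and that of the 9 principal cell markers in cluster 13 was 72.6, 34.5, 61.8 and 56.7. In cluster 12 the 6 connecting tubule markers summed to 642, 656, 860 and 1014, above cluster 8 in each library. The db/db library was at neither extreme of these sums. It was lowest, however, in the summed level of 10 proximal tubule markers, at 22.8, 17.2, 10.2 and 12.9 in cluster 8 and 27.6, 33.6, 11.9 and 24.5 in cluster 13. The 9 principal cell markers summed to 39.6, 27.1, 29.1 and 37.4 in cluster 8, so the name of cluster 8 is less sure. The part of these levels in the differences was not tested.

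Voltage-gated genes of the principal cell-like cluster were highest in db/db. Kcnc2 (chromosome 10, 112271121 to 112467024, plus strand) was at 5.31, 5.57, 11.7 and 6.96 in cluster 13. Kcnh5, a channel of the ether-a-go-go group, was at 2.72, 3.36, 5.75 and 2.68 there. In both, db/db stood above the other 3 libraries, with log2 ratios to WT of 1.13 and 1.05. Against db/db the double mutant had -0.75 and -1.07. In cluster 8, the second site of both genes, db/db was not the highest library, with Kcnc2 at 2.96, 1.88, 2.80 and 3.47 and Kcnh5 at 0.489, 0.740, 0.329 and 0.570.

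In the type B intercalated cell-like cluster 11, Kcnq3, a subunit of the slow M-type current of neurons, had 1.01 in WT and 3.65 in db/db, against 0.693 in the double mutant. The 15 nuclei of Sco2KO/KI gave 1.15. The db/db library stood apart, with log2 ratios of 1.76 over WT and -2.24 for the double mutant against it, on an estimated 59, 135 and 38 UMIs. Kcnq3 had 85.5% of its sum over sites in this cluster.

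Both Kcnj3 and Kcnn3 rest on few reads. Kcnj3, a G protein-gated rectifier, was at 0.293, 0.911, 0.666 and 0.379 in cluster 8, on at most 19 estimated UMIs. Kcnn3, a small-conductance calcium-activated channel, was at 0.292, 0.998, 0.360 and 0.384 in cluster 13, on at most 7. In both, Sco2KO/KI was the highest library and was past 2-fold above WT, by 1.36 and 1.49, and the double mutant was past 2-fold below it, by -1.08 and -1.18.

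**Figure D4:**
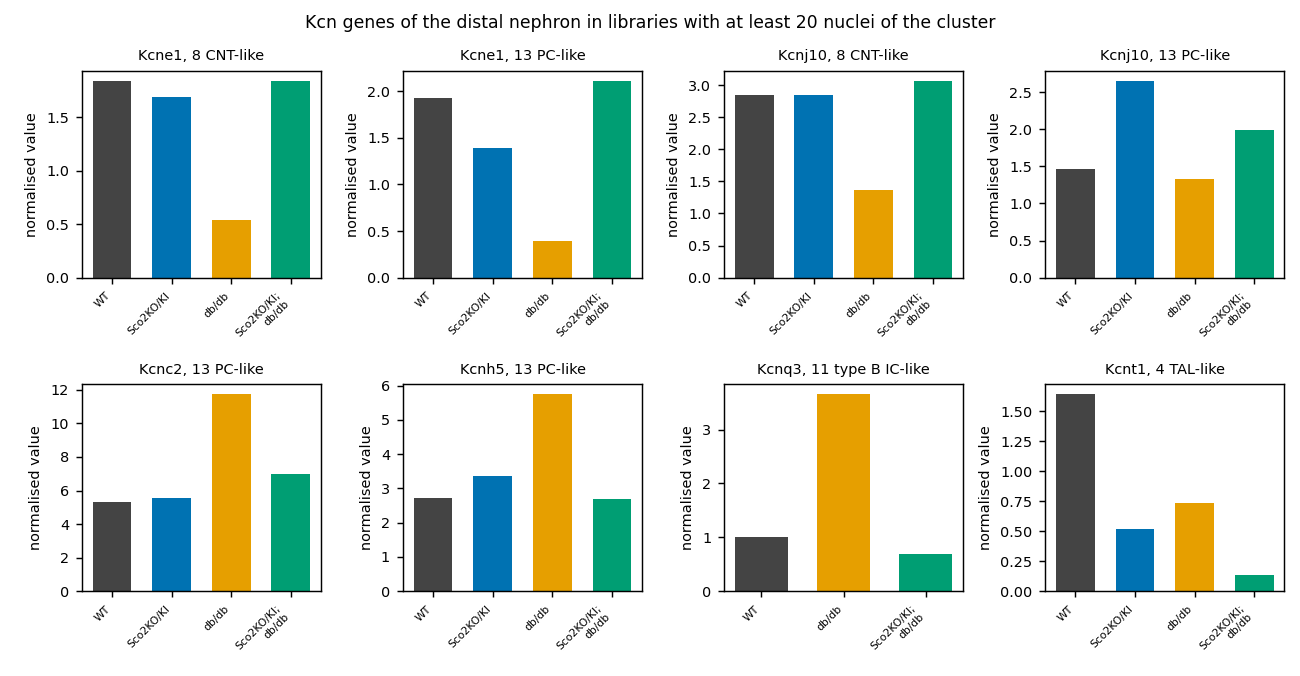
Normalised values (bars from 0) of 6 potassium channel genes in distal clusters, with 1 bar for each library with at least 20 nuclei. The db/db bar is lowest for Kcne1 and Kcnj10 and highest for Kcnc2, Kcnh5 and Kcnq3, while Kcnt1 is highest in WT.

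Thick ascending limb-like cluster 4 was the main site of Kcnn2, another small-conductance calcium-activated channel, and of Kcnt1, a sodium-activated channel. Kcnt1 (chromosome 2, 25863734 to 25918273, plus strand) was at 1.64, 0.516, 0.738 and 0.133, on an estimated 170, 11, 46 and 4 UMIs. WT was highest and the double mutant lowest, and Kcnt1 was past 2-fold lower in all 4 comparisons. The log2 ratios were -1.50 and -1.06 for the single mutants against WT, and -1.85 and -1.40 for the double mutant against db/db and Sco2KO/KI. At this level the calls depend on the pseudocount, and with 0.5 in place of 0.1 only Sco2KO/KI against WT stayed past 2-fold. Unnamed cluster 14, the second site of Kcnt1, had the same highest and lowest library, with 0.763, 0.150, 0.0792 and 0. The summed level of the 6 thick ascending limb markers in cluster 4 was 266, 361, 239 and 257, highest in Sco2KO/KI and lowest in db/db. Among them Slc12a1, the salt transporter of this segment, was at 156, 184, 157 and 127. The part of these levels in the differences of Kcnt1 was not tested. Kcnn2 was at 1.47, 0.943, 1.07 and 0.579 there, within 2-fold in each of the 4 comparisons, with the same order of highest and lowest library.

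Some voltage-gated genes had their highest value in cluster 4 in the double mutant, where Kcnt1 was lowest. Kcnc2 was at 0.532, 0.404, 0.770 and 1.97 in cluster 4, and Kcnd2, a subunit of the fast transient current, at 0.122, 0.116, 0.708 and 1.50. For both, Sco2KO/KI was the lowest library and the double mutant the highest. At its main site, the type A intercalated cell-like cluster 16, Kcnd2 had 1.33 in WT and 0.535 in db/db, with 0.827 for the double mutant, on 10 to 13 estimated UMIs. The log2 ratio was -1.17 for db/db against WT.

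Outside the tubule, Kcnmb2, a BK beta subunit, was listed at 0 in WT in endothelium-like cluster 9 and was at 0.767, 0.470 and 2.08 in the mutants. The median UMI total per nucleus of the WT library was lowest in this cluster, so the 0 does not show absence, and no fold is given. Of 9 channel genes compared there in Sco2KO/KI against WT, Kcnmb2 was the 1 past 2-fold higher. Past 2-fold lower were 4 (Kcnj1, Kcnj16, Kcnk5 and Kcnt2). Of all genes there, 8.8% were higher and 13.4% lower in that comparison. Tubule markers in this cluster differed too. The sum of 6 thick ascending limb markers was 17.2 in WT and 9.56 in Sco2KO/KI, and that of 6 connecting tubule markers 23.4 and 8.92. The sum of 10 proximal tubule markers was 36.5 and 35.2, and that of 8 endothelium markers 72.8 and 90.0. The part of these levels in the differences was not tested.

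Cluster 6 was the main site of 4 genes. It stayed unnamed because markers of endothelium, stroma and pericytes came together with proximal tubule transcripts. Kcnt2, a sodium-activated channel, was at 1.96, 5.11, 5.71 and 3.86, and Kcnd3, a subunit of the fast transient current, at 2.13, 4.38, 3.67 and 2.42. Kcnb2, the subunit Kv2.2, was at 0.314, 0.992, 1.42 and 1.10, and Kcnab1, an accessory beta subunit, at 0.300, 0.498, 1.09 and 0.423. WT was lowest for all 4 genes. In cluster 6, 3 of 12 genes at or above 0.5 were past 2-fold higher in Sco2KO/KI than in WT (Kcnt2, Kcnd3 and Kcnb2) and 1 was lower (Kcnc2), where 4.66% of all genes were higher and 3.26% lower. In db/db, 4 of 14 were past 2-fold higher than in WT (Kcnt2, Kcnb2, Kcnab1 and Kcnip4) and 2 were lower (Kcnj1 and Kcnk5), where 5.32% were higher and 5.16% lower. The median log2 ratio of the 12 was -0.27 in Sco2KO/KI and that of the 14 was 0.34 in db/db, against -0.01 and 0.01 for all genes.

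Marker levels in cluster 6 also differed between libraries. The summed level of 6 fibroblast or stroma markers was 3.74, 8.99, 8.82 and 11.7, that of 8 pericyte, mesangium or smooth muscle markers 2.60, 4.05, 7.21 and 4.28, that of 8 endothelium markers 20.6, 19.4, 16.6 and 25.6, and that of 10 proximal tubule markers 84.8, 75.2, 44.6 and 74.1. Lama2, a laminin gene of stromal cells, was at 2.30, 5.16, 7.33 and 5.59. WT was lowest for both mesenchymal lists and for Lama2, as it was for the 4 channel genes, but db/db was lowest for the endothelium list. From db/db to the double mutant the stroma, endothelium and proximal tubule sums were higher. The pericyte, mesangium or smooth muscle sum, Lama2 and all 4 channel genes were lower. The part of these levels in the differences was not tested. More nuclei of such a type in the cluster and more RNA of these genes per nucleus cannot be told apart in cluster averages.

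Podocyte-like cluster 15 was the main site of Kcnq1ot1, the long antisense transcript that keeps neighbouring imprinted genes silent on the paternal chromosome. Its level was 13.4 in WT, 18.04 in db/db, then 14.9 in the double mutant, and the 11 Sco2KO/KI nuclei gave 21.7. Its next highest mean was 3.36, in cluster 4. Kcnq1ot1 (chromosome 7, 143203458 to 143296549, minus strand) lies inside Kcnq1 on the opposite strand, and the labels do not say whether strand was used in counting. Without strand, reads of the 2 genes could not be told apart. The levels of the genes ran apart nevertheless, with Kcnq1 at 0.506 in cluster 15 and Kcnq1ot1 at 1.05 in cluster 8. Over the 16 sites their Spearman correlation was -0.59. The podocyte-like cluster was also the main site of Kcng2, a silent subunit that modifies Kv2 channels, with 1.42 for WT, 0.462 for db/db and 1.77 for the double mutant. Here db/db was low, by -1.44 against WT, and the double mutant was 1.73 above db/db, on an estimated 28, 10 and 29 UMIs.

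Urothelium-like cluster 18 was the main site of Kcnk2, the stretch-sensitive tandem-pore channel TREK-1, with 6.67 for WT and 4.19 for db/db. It had 77.5% of its sum over sites there. Kcnma1 was at 6.32 and 4.47 in this cluster, and its mean in the parietal epithelium-like cluster was 4.82. These clusters had the highest site means of Kcnma1, each taken over WT and db/db only. Single proximal tubule-like clusters reached such levels too, with 5.47 in cluster 3 of the double mutant. Cluster 18 held 69 WT and 25 db/db nuclei, 2 of Sco2KO/KI, and the double mutant had no column for it.

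The parietal epithelium-like cluster 17, with 33 WT and 57 db/db nuclei, was the main site of 4 low genes. Kcnmb2 had 1.47 (WT) and 2.92 (db/db), Kcnk1, the tandem-pore channel TWIK-1, at 1.27 and 1.16, and Kcnh8, a channel of the ether-a-go-go-like group, at 0.754 and 1.58. Kcnip4, a calcium-binding partner of Kv4 channels, was listed at 0 in WT and had 3.00 in db/db, an estimated 27 UMIs. With 1 library listed at 0, no fold is given for Kcnip4, though the pseudocount puts it among the genes past 2-fold. In the same cluster the summed level of 6 thin limb markers was 11.6 in WT and 1.72 in db/db, that of 10 proximal tubule markers 42.1 and 18.9, and that of 6 parietal epithelium markers 36.3 and 40.4. The part of these levels in the differences was not tested.

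Kcns3, a silent subunit that modifies Kv2 channels, had its main site in the type A intercalated cell-like cluster, with 0.339 for WT, 0.561 for db/db and 0.901 for the double mutant. Leukocyte-like cluster 19 was the main site of Kcnq5, an M-type subunit, and of Kcnk13, a tandem-pore channel known from microglia. Kcnq5 had 1.13 in db/db against 2.28 in the double mutant, and Kcnk13 at 2.73 and 0.453. These 20 and 53 nuclei held an estimated 4 and 2 UMIs of Kcnk13, so that its ratio, past 2-fold lower, rests on single reads. The 10 WT nuclei gave 12.1 for Kcnq5 and were below the limit of 20.

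The channel genes past 2-fold at their main sites were counted in the 4 comparisons. In Sco2KO/KI against WT, 5 of 19 were higher (Kcnb2, Kcnd3, Kcnj3, Kcnn3 and Kcnt2) and 1 was lower (Kcnt1), where 8.19% of all genes were higher and 3.85% lower. In db/db against WT, 8 of 30 were higher (among them Kcnab1, Kcnb2, Kcnc2, Kcnh5, Kcnip4, Kcnq3 and Kcnt2) and 5 were lower (Kcnd2, Kcne1, Kcng2, Kcnj10 and Kcnt1), where 9.33% were higher and 6.56% lower. The double mutant against db/db had 3 of 26 higher (Kcne1, Kcng2 and Kcnj10) and 5 lower (Kcnab1, Kcnh5, Kcnk13, Kcnq3 and Kcnt1), where 7.5% were higher and 12% lower. Against Sco2KO/KI it had 0 of 19 higher and 3 lower (Kcnj3, Kcnn3 and Kcnt1), where 5.81% were higher and 7.51% lower. The median log2 ratio of the channel genes was 0.29, 0.46, -0.30 and -0.32 in these 4 comparisons, and that of all genes 0.15, 0.08, -0.04 and -0.06. These comparisons share libraries, so that a value that is high or low in db/db enters 2 of them.

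**Figure D5:**
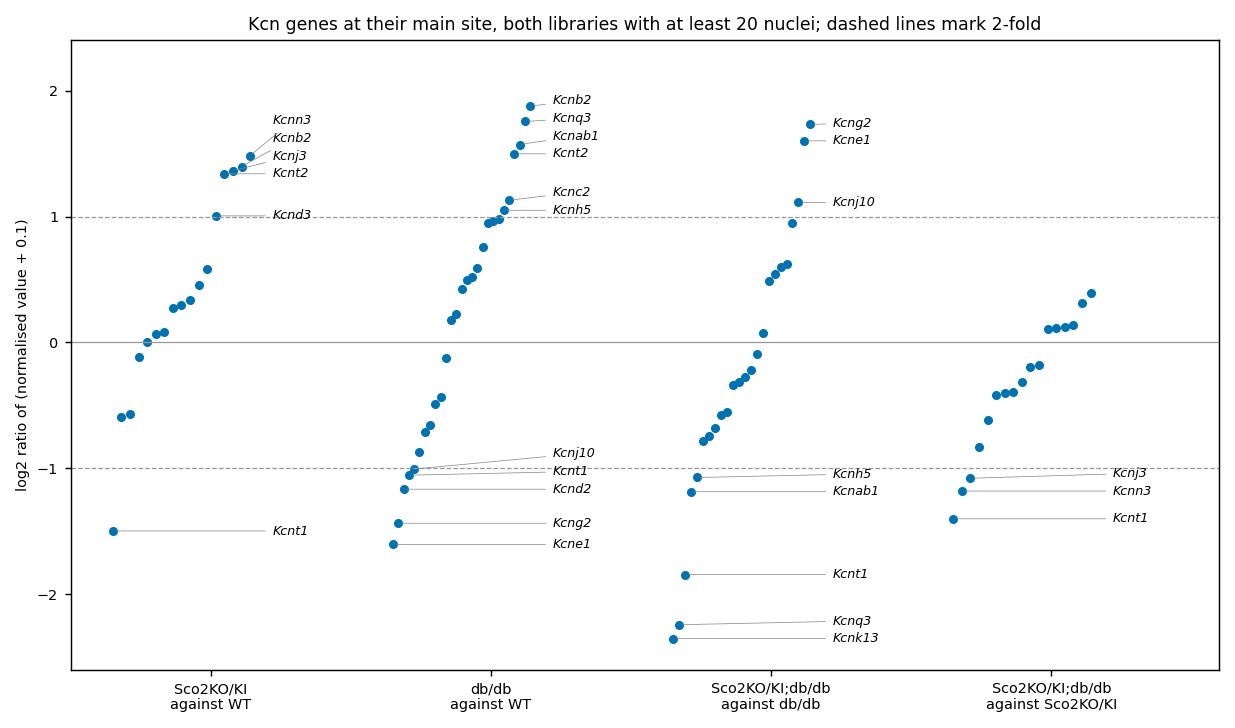
Log2 ratio of the value plus 0.1 at the main site for up to 30 potassium channel genes above the floor (points, sorted) in 4 comparisons (horizontal axis), where both libraries held at least 20 nuclei and neither value was listed at 0. Dashed lines mark 2-fold and genes past it are named, with Kcnt1 below the lower line in all 4.

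Gene length moved with the calls against WT. Of the genes annotated at 100 kb or more, 11% were past 2-fold higher in Sco2KO/KI than in WT and 12.9% in db/db than in WT, against 7.15% and 8.11% of shorter genes. Past 2-fold lower were 3.06% and 2.85% of the long genes, against 4.15% and 7.78% of shorter ones. The channel genes higher in these comparisons were long ones in 5 of 5 and in 7 of 8 cases, out of 10 and 17 long channel genes compared. In the double mutant the long genes were past 2-fold lower in 9.41% of cases against db/db and 6.72% against Sco2KO/KI, where shorter genes had 12.8% and 7.85%. There 3 of 13 and 2 of 10 long channel genes were lower, and 2 of 13 and 1 of 9 shorter ones. Among channel genes under 100 kb, 4 of 13 were lower in db/db than in WT and 3 of 13 were higher in the double mutant when set against db/db, where all such genes had 7.78% and 8.49%. The part of gene length in these differences was not tested.

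Few of the genes that work with potassium channels were past 2-fold. Of 37 listed partners, such as the sodium-potassium-chloride transporters, chloride channels, ENaC subunits and the WNK kinases, 36 were in the table and 29 reached the floor. Of 20 compared in Sco2KO/KI against WT, 0 were past 2-fold higher and 1 was lower, Sgk1, an aldosterone-induced kinase, with 2.79 in WT and 0.892 in Sco2KO/KI in the endothelium-like cluster. Of 27 in db/db against WT, 1 was higher, the chloride channel Cftr in the parietal epithelium-like cluster with 0.815 and 3.00, and 1 was lower, the sulfonylurea receptor Abcc8 in the urothelium-like cluster, where WT had 1.35 and db/db is listed at 0. Of 25 in the double mutant against db/db, 0 were higher and 1 was lower, the magnesium transport gene Cnnm2 in cluster 5 with 8.71 and 3.71. Of 20 against Sco2KO/KI, 1 was higher, Sgk1 with 0.892 and 4.98, and 0 were lower. The shares of all genes given above for each comparison are the background here too.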

How the data were processed

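Nuclei of kidney cortex from 4 genotypes, 1 library each, were grouped by the genotype in the labels. The deposited signal is the average per gene, library and cluster of UMIs scaled to 10000 per nucleus, made by the authors with Cell Ranger and Seurat on mm10, per the submitters' processing notes. The scaling was read from the values. Versions, filters and doublet treatment are not stated there or in the labels. Of 21481 rows in 83 columns, 25 named by dates were left out (at most 0.307% of a column). Columns of no known sample numbered 0.

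Numbers of nuclei and median UMI totals per nucleus were recovered from the lowest values of each column, whose quotients are whole multiples of the number of nuclei (at least 80% of quotients, tolerance 1e-10, lowest share 89.0%), tested on simulated data. Estimated UMIs are the value times nuclei times median total over 10000, a rough figure.

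Ratios are log2 of the value plus a pseudocount of 0.1, which understates changes of low genes. The proximal tubule-like class is the unweighted mean of its clusters. Calls are past 2-fold, and no test was made. Named were all channel genes at or above 1.0, those past 2-fold, and those of the proximal tubule-like class at or above 0.5. A few further values, such as those below the floor and of second sites, were chosen after they were seen. Some genes counted above are not reported here by name. Members, lists and rules were chosen with earlier results of these data known. Positions are from GENCODE vM21 (77 of 77 matched), and promoters from RefSeq. Python 3.11.15, pandas 2.3.3, NumPy 2.4.6, SciPy 1.17.1 and Matplotlib 3.10.9 were used. The alternatives were other pseudocounts, floors and minimum numbers of nuclei, weighting by nuclei, leaving out cluster 7, rescaling without mitochondrially encoded genes and a minimum of 20 estimated UMIs.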

Additional observations from a re-analysis of the deposited data

Results flagged for a closer look

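Over the proximal tubule-like class or a gene's main site, the ratio of the libraries with and without the Sco2 genotype had opposite signs on the lean and the db/db background for 5 genes, with at least 0.5 on the log2 scale on each side. The difference of the 2 log2 ratios was -2.64 for Kcnc2 in the proximal tubule-like class (-1.26 lean, 1.38 on db/db), 2.04 for Kcnj3 in cluster 8 (1.36 lean, -0.68 on db/db), 1.89 for Kcnt2 in cluster 6 (1.34 and -0.55), 1.77 for Kcnab1 in cluster 6 (0.58 and -1.19) and 1.59 for Kcnd3 in cluster 6 (1.01 and -0.58). With 1 library per genotype these differences were not tested. The share of all genes that meet this rule is not given here, so the 5 cannot be read as particular to channel genes. Kcnj3 rests on at most 19 estimated UMIs per library. In cluster 6 the summed stroma markers, at 3.74, 8.99, 8.82 and 11.7, were higher with the Sco2 genotype than without it on both backgrounds. The summed pericyte, mesangium or smooth muscle markers, at 2.60, 4.05, 7.21 and 4.28, were higher on the lean background and lower on db/db, as was Lama2. The endothelium and proximal tubule sums were lower on the lean background and higher on db/db. The part of these levels in the differences was not tested.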

How the results depend on the processing

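The 116 ratios of single genes, at the main site or over the proximal tubule-like class, were recomputed with pseudocounts of 0.5 and 0.02 and rescaled without mitochondrially encoded genes, and those of the class also weighted by nuclei and without cluster 7. No ratio past 2-fold changed sign under these. With a pseudocount of 0.5, 19 were no longer past 2-fold, with 0.02 another 3 were, and rescaling moved 0 across it. Weighting by nuclei and leaving out cluster 7 each moved 1 past it, Kcnma1 in the double mutant against Sco2KO/KI (1.07 and 1.17). Shares of all genes are given below for the limit of 20 estimated UMIs only, so the counts under the other settings have no background. Counts of channel genes past 2-fold at the main site changed by over 1.5 times as follows. With a pseudocount of 0.5, Sco2KO/KI against WT had 1 higher (5 before), db/db against WT 1 lower (5 before), and the double mutant 2 lower against db/db (5 before) and 0 against Sco2KO/KI (3 before). With a floor of 0.2, the double mutant against db/db had 5 higher and 8 lower. With a floor of 1.0, Sco2KO/KI against WT had 2 higher and 0 lower, db/db against WT 3 lower, and the double mutant 3 lower against db/db and 0 against Sco2KO/KI. With no minimum number of nuclei, Sco2KO/KI against WT had 6 lower, and the double mutant had 8 lower against db/db and 3 higher and 6 lower against Sco2KO/KI. With at least 50 nuclei, the double mutant had 5 higher against db/db and 1 higher and 1 lower against Sco2KO/KI. With at least 20 estimated UMIs in the higher library, an alternative chosen after seeing the data, Sco2KO/KI against WT had 3 higher, of 17 compared (6.79% of all genes), and the double mutant 0 lower against Sco2KO/KI, of 16 (5.12%). In db/db against WT, 8 were higher under this limit, of 24 (7.75%).

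In the proximal tubule-like class, a pseudocount of 0.5 left 0 lower in Sco2KO/KI against WT and 0 higher in the double mutant against db/db. A pseudocount of 0.02 or a floor of 0.2 gave 1 lower in db/db against WT, and a floor of 1.0 left 0 lower in Sco2KO/KI against WT. The double mutant against Sco2KO/KI had 2 higher with at least 50 nuclei, with the mean weighted by nuclei and without cluster 7. Shares of all genes under these settings are not given for the class either. Apart from changes that follow from fewer or more genes being compared, the cause was not tested. No paired analysis was possible because each genotype has 1 library and no test was made. Leaving out a replicate was not possible for the same reason. Sco2KO/KI, with 1182 nuclei, limits its comparisons to 19 of the 32 genes.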
